A study of Mus musculus with 4 samples.

Results

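The genes described here are 10 components of the G1 cell cycle engine, taken by symbol from a table of 15466 genes: the D-type cyclins Ccnd2 and Ccnd3, the E-type cyclins Ccne1 and Ccne2, the cyclin-dependent kinases Cdk2, Cdk4 and Cdk6, and the kinase inhibitors Cdkn1a, Cdkn1b and Cdkn2c. All 10 symbols matched 1 row each. Ccnd1, the third D cyclin, and the inhibitor genes Cdkn2a and Cdkn2b were not analysed here. Messenger RNA was sequenced from splenic CD8 T cells of C57BL/6 mice. The control mice, labelled wild type, received PBS, and the others, labelled by treatment alone, received IL-15C, in which the growth-promoting cytokine IL-15 is bound to IL-15Ra, at 4 treatments per week. Each treatment gave naive cells, sorted as CD44-negative and CD49d-negative, and virtual memory (VM) cells, sorted as CD44-high and CD49d-negative, a memory-type population that forms without known antigen contact. The 4 groups (control naive, control VM, IL-15C naive, IL-15C VM) had 1 library each. The titles give 3 mice per group, while pooling, age and cytokine dose are not stated in the labels.

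D cyclins bind the kinases CDK4 and CDK6 and start the phosphorylation of the retinoblastoma protein, which frees E2F transcription factors. E cyclins, themselves E2F targets, then activate CDK2 and carry the cell into S phase. The INK4 inhibitor p18, encoded by Cdkn2c, blocks CDK4 and CDK6, whereas the CIP/KIP inhibitors p21 (Cdkn1a) and p27 (Cdkn1b) act mainly on CDK2 complexes. In resting T cells p27 protein is abundant, and growth-promoting cytokines that signal through STAT5, such as IL-2 and IL-15, lower it largely through protein turnover.

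The libraries held 43862816 to 48950547 reads assigned to genes, so that 1 read equalled 0.0197 to 0.0233 CPM (counts scaled to library size, after TMM scaling). No difference had a replicate check. The 95% intervals below cover counting error only, and no test across mice was possible. Comparison of a gene required a sum of 20 reads over the libraries involved and a level of 1 CPM in at least one of them. Genes are called higher or lower, or counted as such, where the ratio and all of its interval lay beyond 2-fold. All 6 CD8 T cell genes were present in every library (Cd8a at 1050 to 1603 CPM), and Cd44 was at 8.65 and 17.2 CPM in the naive against 232 and 243 CPM in the VM libraries. Itga4, which encodes the CD49d used as a negative gate for both subsets, was nevertheless present, at 614 CPM in control naive, 351 CPM in control VM, 289.6 CPM in IL-15C naive and 50.9 CPM in IL-15C VM cells, and was lower with IL-15C in both subsets. The IL-15C naive library also had higher levels than control naive of 4 of 5 VM markers (Eomes, Tbx21, Cxcr3 and Ly6c2), whose sum was 1049 against 432 CPM for the 5, beside 2508 and 3991 CPM in the VM libraries. The part of these differences in the naive response below was not tested. In bulk samples, a change in the share of cells that express a gene and a change in RNA per cell cannot be told apart.

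Promoter sequences are shown for 3 genes because they span the responses below: Ccne1 and Cdk2, a cyclin and its kinase that were both higher with IL-15C in both subsets, and Cdkn1b, an inhibitor beyond 2-fold in none of the comparisons. They are RefSeq sequences on GRCm38.p6, written 5′ to 3′ on the gene's strand, and capitals mark the letters GGGCGG (a binding motif of SP1) or an E2F core, on either strand. The Cdk2 stretch is chr10:128705052-128705179 (minus strand, 128 bases up to the start site), the Ccne1 stretch chr7:38107535-38107740 (minus strand, 206 bases ending 45 bases before the RefSeq start site), and the Cdkn1b stretch chr6:134920151-134920400 (plus strand, 250 bases up to the start site).
Cdk2: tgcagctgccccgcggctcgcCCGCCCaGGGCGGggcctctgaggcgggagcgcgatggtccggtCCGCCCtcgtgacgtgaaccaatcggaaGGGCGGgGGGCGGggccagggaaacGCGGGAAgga
Ccne1: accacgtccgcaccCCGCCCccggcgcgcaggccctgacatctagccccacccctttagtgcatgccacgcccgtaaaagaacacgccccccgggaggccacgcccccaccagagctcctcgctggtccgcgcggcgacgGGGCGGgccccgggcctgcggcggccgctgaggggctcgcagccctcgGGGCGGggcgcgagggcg
Cdkn1b: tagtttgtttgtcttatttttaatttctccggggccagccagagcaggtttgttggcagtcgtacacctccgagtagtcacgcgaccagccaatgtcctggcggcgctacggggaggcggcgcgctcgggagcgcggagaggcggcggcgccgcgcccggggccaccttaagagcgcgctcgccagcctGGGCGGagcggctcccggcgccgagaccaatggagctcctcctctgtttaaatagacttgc
The Cdk2 stretch has GGGCGG 5 times and 1 E2F core, whose letters begin 10 bases before the start site. The Ccne1 stretch has GGGCGG 3 times and the Cdkn1b stretch once, and neither has an E2F core. Over the 250 bases before the start sites, promoters of 8 of the 10 genes were matched, Ccnd2 and Ccne2 being the others. E2F cores (the letters TTCCCGC or its variants TTGGCGC and otherwise TTGCCGC and also TTCGCGC on both strands) occurred in 2 of their 11 windows, those of Cdk2 (2 matches, 1 of them outside the stretch shown) and Cdkn2c (1 match, 25 bases before the start site), against 7.89% of all 32851 windows. GGGCGG was present in 8 of the 11 windows, against 32.7% of all windows, and was missing from that of Cdk6 and from 1 of 2 each for Cdkn1a and Cdkn2c. The FOXO motif GTAAACA was found in 1 of the 11 windows, before Ccnd3 (3.17% of all windows), and the STAT motif TTCNNNGAA in 0 of the 11 (7.02% of all windows). These are matches of letters in a window and say nothing of binding.

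The D cyclins moved in opposite directions in IL-15C VM cells. Ccnd2, encoding cyclin D2 (Entrez 12444, chromosome 6, 127125162 to 127152188), was at 698 CPM in control naive, 707 CPM in control VM, 517 CPM in IL-15C naive and 239 CPM in IL-15C VM cells. Both control libraries stood level, the IL-15C naive library was lower and the IL-15C VM library was lowest. Its log2 ratio between IL-15C and control was −1.56 in VM cells (95% counting interval −1.59 to −1.53), counted as lower, and −0.43 (−0.46 to −0.41) in naive cells, within 2-fold. Ccnd3, encoding cyclin D3 (Entrez 12445, chromosome 17, 47505051 to 47599689), stood at 135 CPM in control naive, 185 CPM in control VM, 155 CPM in IL-15C naive and 330.3 CPM in IL-15C VM cells, so that the IL-15C VM library alone stood well above the others. Its log2 ratio with IL-15C was 0.84 (0.80 to 0.88) in VM cells and 0.19 (0.14 to 0.24) in naive cells, both within 2-fold, and the naive value had the opposite sign in TPM (−0.029).

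**Figure D1:**
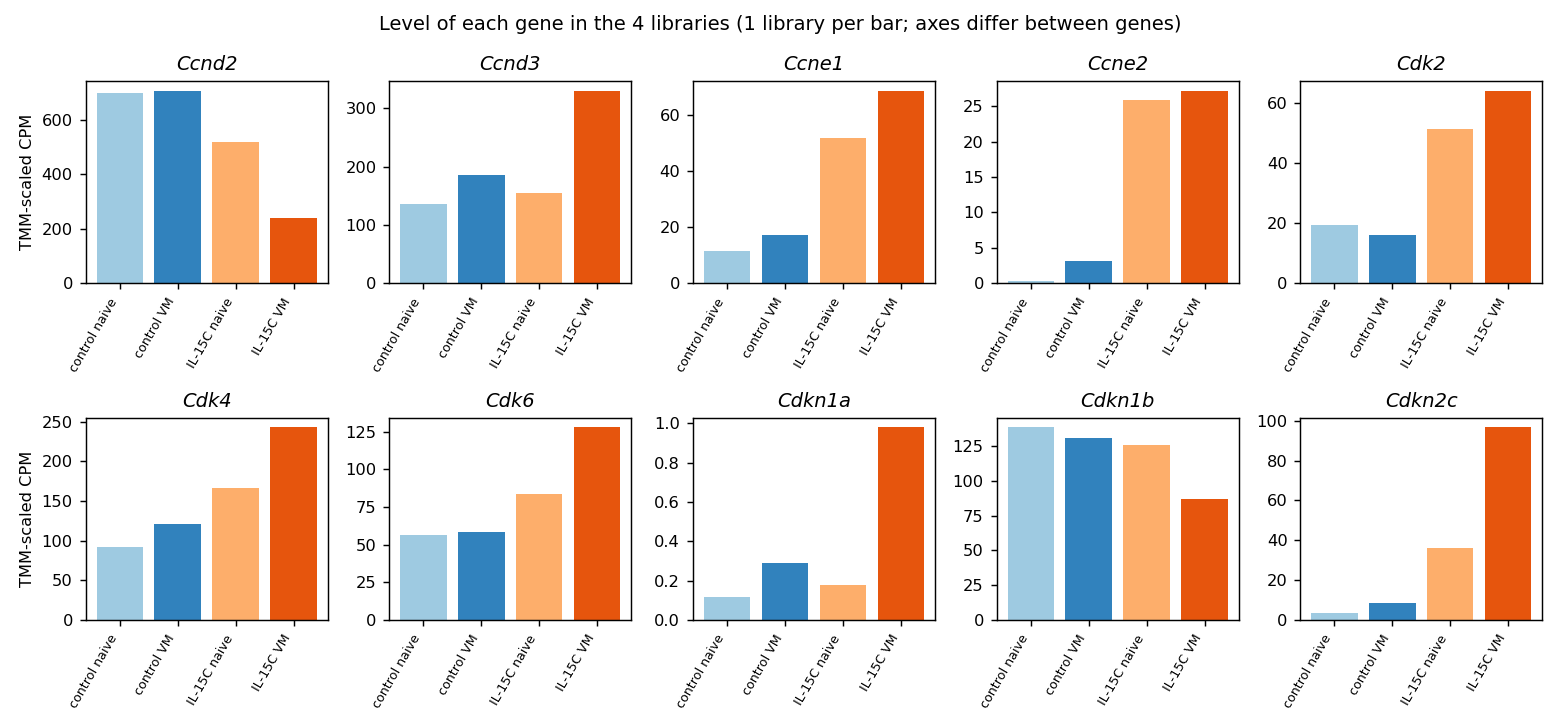
Level of each of the 10 genes in TMM-scaled CPM (vertical axis, from 0, with its own range per gene) in the 4 libraries, 1 bar per library. Ccnd2 falls to 239 CPM in the IL-15C VM library, where Ccnd3 reaches 330.3 CPM and Cdkn2c 96.6 CPM, while Ccne2 stands at 25.9 and 27.2 CPM in the 2 IL-15C libraries against 0.315 and 3.17 CPM in the controls.

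Per transcript length, the leading D cyclin differed between libraries. In the deposited TPM (transcript abundance corrected for length), Ccnd2 made up 63.8% of the 2 D cyclins in control naive, 56.3% in control VM and 52.1% in IL-15C naive cells, but 19.5% in IL-15C VM cells, where Ccnd3 was 4.14 times as abundant as Ccnd2 (289.8 against 70.04 TPM). The sum of both was 369.6, 407 and 273 TPM in the first 3 libraries and 359.8 TPM in IL-15C VM cells, so that the lower Ccnd2 and the higher Ccnd3 nearly offset each other there. Without division by length, Ccnd2 likewise led the pair in 3 of the 4 libraries. Reads of Ccnd3-ps, a listed pseudogene of Ccnd3, numbered 2 to 12 per library beside 6889 to 14152 reads of Ccnd3.

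The E cyclins were higher with IL-15C in both subsets. Ccne1, encoding cyclin E1 (Entrez 12447, chromosome 7, 38097984 to 38107490), was at 11.6 CPM in control naive, 17.0 CPM in control VM, 51.5 CPM in IL-15C naive and 68.5 CPM in IL-15C VM cells. Its log2 ratio with IL-15C was 2.15 (2.02 to 2.28) in naive and 2.01 (1.898 to 2.13) in VM cells, and the difference between these responses, −0.13, had an interval that included 0 (−0.31 to 0.038). Ccne2, encoding cyclin E2 (Entrez 12448, chromosome 4, 11190433 to 11204779), had 16 reads in control naive (0.315 CPM), 142 in control VM (3.17 CPM), 1178 in IL-15C naive (25.9 CPM) and 1165 in IL-15C VM cells (27.2 CPM). It was nearly undetected in control naive cells, and both IL-15C libraries were at like levels (log2 ratio of VM against naive 0.069, interval −0.049 to 0.19). The log2 ratio of Ccne2 with IL-15C was 6.18 (5.66 to 7.18) in naive cells, above that of 99.9% of the genes compared, and 3.08 (2.85 to 3.36) in VM cells. Ccne1 stayed the more abundant per length: it was 60.7 times Ccne2 in control naive, 8.38 times in control VM, 3.07 times in IL-15C naive and 3.87 times in IL-15C VM cells in TPM.

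Among the kinases, Cdk2 changed most. Cdk2, the partner of E cyclins (Entrez 12566, chromosome 10, 128697938 to 128705051), was at 19.2 CPM in control naive, 15.8 CPM in control VM, 51.4 CPM in IL-15C naive and 64.0 CPM in IL-15C VM cells. Both IL-15C libraries lay above both controls, with log2 ratios of 1.42 (1.31 to 1.53) in naive and 2.01 (1.895 to 2.14) in VM cells. Cdk4, a partner of D cyclins (Entrez 12567, chromosome 10, 127063535 to 127067288), was at 92.3, 120.2, 167 and 243 CPM in the same order, each library above the one named before it. Its ratios with IL-15C were 0.85 (0.80 to 0.90) and 1.01 (0.97 to 1.06), the second straddling 2-fold and counted as higher with DESeq2 size factors (1.06). Cdk6, the other D cyclin partner (Entrez 12571, chromosome 5, 3341004 to 3531008), was at 56.3 CPM in control naive, 58.3 CPM in control VM, 83.6 CPM in IL-15C naive and 128 CPM in IL-15C VM cells. The control libraries of Cdk6 were level, and its ratio with IL-15C was 0.57 (0.50 to 0.64) in naive cells and 1.13 (1.07 to 1.20) in VM cells, counted as higher there but not when scaled by library size alone (1.02) or in TPM (0.97).

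Cdk4 led the kinases in every library, at 80.4% to 88.0% of the TPM of the 3, against 6.97% to 14.9% for Cdk2 and 4.76% to 6.02% for Cdk6. Their sum was 156 TPM in control naive, 185 TPM in control VM, 247 TPM in IL-15C naive and 360.3 TPM in IL-15C VM cells. Read counts not divided by length put Cdk6 at 27.7% to 33.5% of the 3 kinases, ahead of Cdk2.

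**Figure D2:**
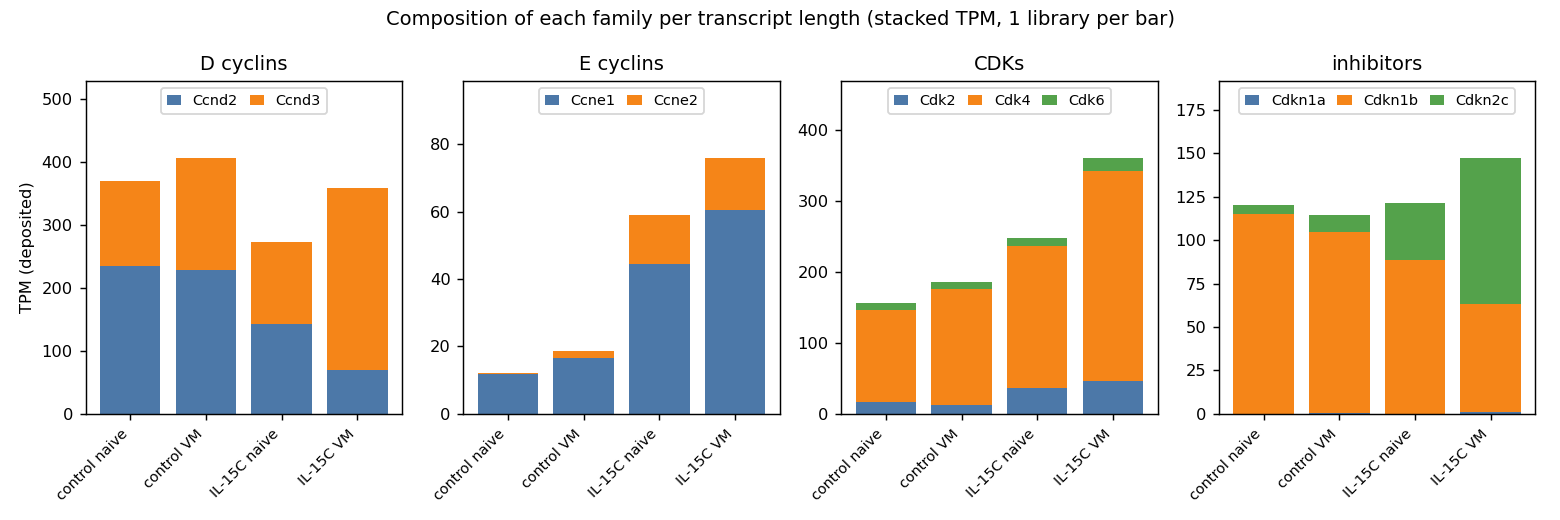
Deposited TPM (vertical axis, from 0) of the D cyclins, E cyclins, CDKs and inhibitors, stacked by gene, 1 bar per library. Ccnd2 makes up 63.8% of its bar in control naive and 19.5% in IL-15C VM cells, and Cdkn2c 4.58% and 57.2% of its own.

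The inhibitors went separate ways. Cdkn2c, encoding p18 (Entrez 12580, chromosome 4, 109660876 to 109666756), was at 3.499 CPM in control naive, 8.39 CPM in control VM, 36.1 CPM in IL-15C naive and 96.6 CPM in IL-15C VM cells. Its level was lowest in control naive and highest in IL-15C VM cells, with log2 ratios with IL-15C of 3.35 (3.14 to 3.60) in naive and 3.52 (3.37 to 3.68) in VM cells. The difference between these responses, 0.17, had an interval that included 0 (−0.11 to 0.43). Cdkn1b, encoding p27 (Entrez 12576, chromosome 6, 134920401 to 134925525), was at 138 CPM in control naive, 131 CPM in control VM, 126 CPM in IL-15C naive and 86.7 CPM in IL-15C VM cells. Its 4 levels lay within 1.60-fold of each other, the lowest again being IL-15C VM, and its log2 ratios with IL-15C were −0.14 (−0.19 to −0.086) in naive and −0.60 (−0.66 to −0.54) in VM cells. Cdkn1a, encoding p21, a target of p53 (Entrez 12575, chromosome 17, 29090979 to 29100722), had 6, 13, 8 and 42 reads in control naive, control VM, IL-15C naive and IL-15C VM cells, which is under 1 CPM in each, and was therefore not compared. Its highest level, 0.980 CPM in IL-15C VM cells, was above that in IL-15C naive cells by a log2 ratio of 2.22 (1.37 to 3.78), just under the minimum level of 1 CPM.

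In TPM, Cdkn1b made up 95.3% of the 3 inhibitors in control naive, 91.2% in control VM, 73.0% in IL-15C naive and 42.2% in IL-15C VM cells, where Cdkn2c led with 57.2%. Cdkn1a was at most 0.594%. The summed inhibitor TPM was 120.4, 115, 121 and 147, and the sum of the D cyclins was 3.07, 3.55, 2.25 and 2.44 times as large. The lowest inhibitor sum was that of control VM and the highest that of IL-15C VM cells.

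The deposited FPKM values (fragments scaled to length and depth) credited Cdkn2c with transcripts of different mean length in different libraries, an observation made after its values were seen. Reads per FPKM, relative to the median gene of the library, were 0.435 in control naive, 0.565 in control VM, 0.648 in IL-15C naive and 0.684 in IL-15C VM cells for Cdkn2c. This 1.57-fold spread exceeded that of 99.5% of the 9978 genes with at least 100 reads in every library, whose median spread was 1.01-fold. The same ratio moved by at most 1.07-fold for the other 9 genes. GENCODE M21 lists a Cdkn2c transcript of 1106 bases with 2 exons, starting at 109665372, and one of 2471 bases with 3 exons, starting at 109667189. The latter start lies upstream of the RefSeq start site at 109666756, before which the E2F core was matched. Which transcript each library held was not tested. In TPM the log2 ratios of Cdkn2c with IL-15C were 2.54 in naive and 3.09 in VM cells, smaller than from counts.

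In naive cells, 4 of the 9 genes compared were counted as higher with IL-15C (Ccne1, Ccne2, Cdk2 and Cdkn2c), against 4.95% of all 12174 genes, and 0 as lower, against 1.99% (6.94% in either direction). In VM cells 5 of 9 were counted as higher, the same 4 and Cdk6, against 8.6% of 12370 genes, and 1 as lower, Ccnd2, against 8.83% (17.4% in either direction). The median log2 ratio of the 9 genes was 0.85 in naive and 1.13 in VM cells, beside 0.017 and −0.041 over all genes compared. The 2 responses share no library. Their difference was beyond 2-fold for 2 of 9 genes, both lower in VM than in naive cells (4.34% of 12617 genes, and 5.29% in either direction): Ccne2, by a log2 difference of −3.10 (−4.02 to −2.51), and Ccnd2, by −1.13 (−1.17 to −1.09). For Ccne2 this went with the 8.97-fold higher starting level in control VM cells. For Ccnd2 the control levels were alike, and its difference was −0.98 in TPM, within 2-fold. In the other direction 0 of 9 were counted (0.951% of all genes), and Ccnd3, Cdk2 and Cdk6 had differences of 0.65, 0.59 and 0.56.

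**Figure D3:**
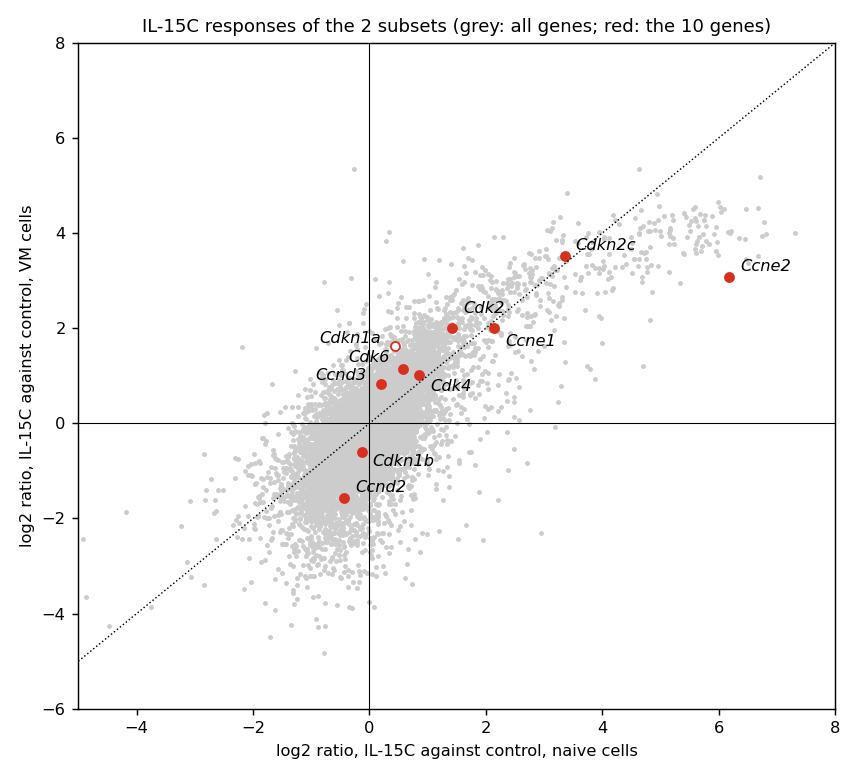
Log2 ratio of IL-15C against control in naive cells (horizontal axis) and in VM cells (vertical axis), 1 grey point per gene compared, the 10 genes in red, Cdkn1a open because it was under 1 CPM. The dotted line marks equal responses: Cdkn2c (3.35 and 3.52) and Ccne1 (2.15 and 2.01) lie near it, Ccne2 (6.18 and 3.08) and Ccnd2 (−0.43 and −1.56) lie below it.

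Between the subsets of control mice, 2 of 9 genes were counted as higher in VM than in naive cells, against 4.81% of 12259 genes, and 0 as lower, against 1.11% (5.92% in either direction). These were Ccne2, with a log2 ratio of 3.17 (2.58 to 4.18), and Cdkn2c, with 1.25 (1.001 to 1.53). The interval of Cdkn2c touched 2-fold, and it was not counted with DESeq2 size factors (1.22), with library size alone (1.23) or in TPM (0.82). Ccne1 (0.55), Ccnd3 (0.45) and Cdk4 (0.38) were slightly higher in VM cells and Cdk2 slightly lower (−0.28, −0.42 to −0.13), all within 2-fold, while Cdkn1b had a ratio of −0.080. Ccnd2 (0.017) and Cdk6 (0.052) had intervals that included 0, and the sign of Ccnd2 turned under library size scaling, DESeq2 size factors and TPM, that of Cdk6 in TPM.

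Markers of other cells were also higher in the control VM library. Summed levels in control VM against control naive cells were 179.7 against 4.66 CPM for 4 of 5 dendritic cell genes in the table, 644 against 487 CPM for 5 of 6 B cell genes, 12.7 against 5.19 CPM for 4 of 6 myeloid genes, 20.7 against 2.56 CPM for 3 of 4 CD4 T cell genes, 20.6 against 1.18 CPM for 4 of 5 NK and gamma-delta genes and 6.72 against 2.58 CPM for 4 of 6 erythroid and platelet genes. In IL-15C VM cells the same sums were 32.3, 609, 18.1, 5.74, 35.6 and 1.94 CPM, and in IL-15C naive cells 7.35, 562, 3.39, 4.202, 5.39 and 2.16 CPM. Every gene in the table has a read in each library, so none of these markers stood at 0. Their part in the levels of Ccne2 and Cdkn2c was not tested.

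Between the subsets of IL-15C mice, 2 of 9 genes were counted as higher in VM cells (6.52% of 12206 genes) and 1 as lower (5.91%, with 12.4% in either direction). The higher ones were Cdkn2c, with a log2 ratio of 1.42 (1.34 to 1.503), and Ccnd3, with 1.10 (1.05 to 1.14), the latter not counted when scaled by library size alone (1.02). The lower one was Ccnd2, at −1.11 (−1.14 to −1.08). The kinases were modestly higher in VM cells, Cdk6 by 0.61, Cdk4 by 0.54 and Cdk2 by 0.32, and Cdkn1b was lower by a log2 ratio of −0.54, all within 2-fold. Each library enters 2 of these 4 comparisons, so the comparisons between subsets and those between treatments are not independent of each other.

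**Figure D4:**
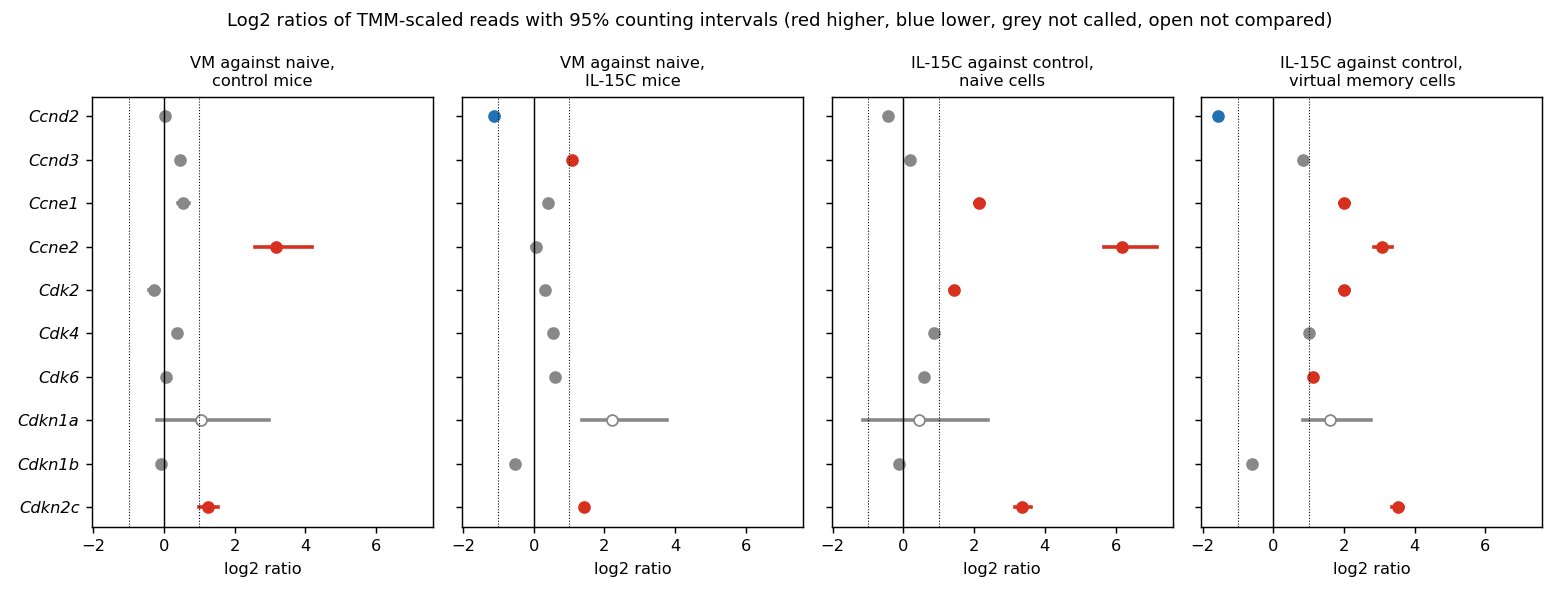
Log2 ratios (horizontal axis) of the 10 genes in the 4 comparisons, with 95% counting intervals as lines, red for genes counted as higher, blue for lower, grey for neither and open circles for genes under the minimum reads or level. Dotted lines mark 2-fold. The ratios of Ccne2 range from 0.069 between the IL-15C subsets to 6.18 for the naive response, while those of Cdkn1b stay between −0.60 and −0.080.

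Markers of S, G2 and M phase had their lowest summed level in the control naive and their highest in the IL-15C VM library. The same held for Ccnd3, Ccne1, Ccne2, Cdk4, Cdk6, Cdkn2c and Cdkn1a, the last under 1 CPM throughout. It did not hold for Ccnd2, Cdk2 and Cdkn1b. The 16 phase markers summed to 338 CPM in control naive, 768 CPM in control VM, 2717 CPM in IL-15C naive and 7067 CPM in IL-15C VM cells. With IL-15C, 15 of 16 were counted as higher in naive and 16 of 16 in VM cells (medians 5.40 and 3.78). Of all genes, 4.95% and 8.6% were higher in these responses. The difference between the responses was beyond 2-fold for 8 of the 16 markers, all lower in VM cells, as was that of Ccne2. The median difference of the markers was −1.15, and 4.34% of all genes were lower. How far the changes in Ccne1, Ccne2, Cdk2 and Cdkn2c go with the share of cycling cells was not tested. Likeness of pattern was measured over the 4 libraries, as the root mean square difference of centred log2 CPM among 8621 genes. With 4 values per gene and no background distance, closeness of pattern does not show shared regulation, which was not tested. Nearest to Ccne1 were the replication genes Pcna (0.046) and Orc6 (0.047) and the gene Atad5 (0.075). Nearest to Ccne2 were Esco2, a cohesin acetyltransferase gene (0.16), the kinetochore gene Spc25 (0.27) and the origin licensing gene Cdc6 (0.29). Cdk2 lay nearest to Timeless (0.11), Csrp1 (0.12) and the checkpoint kinase gene Chek2 (0.14). Cdkn2c was nearest to Diaph3 (0.10), Mtfr2 (0.12) and the spindle gene Tacc3 (0.15), and Cdkn1a, with few reads, to Coro2a (0.038), Crybg3 (0.13) and Serpinb9 (0.14).

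Other genes of the same families differed from each other in their response. Of 9 listed genes 5 were in the table. Ccna2, cyclin A2 of S and G2 phase, was at 1.12, 23.8, 128 and 452 CPM in control naive, control VM, IL-15C naive and IL-15C VM cells, and its partner Cdk1 at 0.944, 9.35, 58.1 and 193 CPM, each counted as higher with IL-15C in both subsets. Cdkn2d, which encodes the INK4 inhibitor p19, stayed within 2-fold, at 55.3, 52.1, 73.0 and 101.5 CPM, unlike the 27.6-fold range of Cdkn2c. Cdkn1c, encoding p57, had 10 to 17 reads per library and Ccna1 had 23 to 55. Cdkn1c was under the minimum level and was not compared. Ccna1 was likewise not compared between the control subsets or in the naive response. In its other comparisons Ccna1 was not counted as higher or lower.

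Several genes for phosphorylation of CDKs, a list not restricted to the G1 kinases, were higher with IL-15C. Of 8 genes for CDK activation and inhibitory phosphorylation, 3 were counted as higher with IL-15C in naive cells (Cdc25c 4.56, Wee1 3.02, Pkmyt1 1.27) and 5 in VM cells (largest Cdc25c 4.31, Wee1 2.96 and Cdc25b 2.24), beside 4.95% and 8.6% of all genes, with 0 lower in either and medians of 0.88 and 1.24. Cdc25a, the phosphatase that activates CDK2, had ratios of 0.70 in naive and 1.29 in VM cells. The kinase that activates all G1 CDKs, made of Cdk7, Ccnh and Mnat1, had ratios between −0.35 and 0.78 in the 2 responses, all within 2-fold.

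Among 16 genes of the ubiquitin ligases that turn over G1 cyclins and inhibitors, 3 were counted as higher with IL-15C in naive cells (Dtl 5.34, Cks1b 3.94, Cks2 2.79) and 4 in VM cells (largest Cks1b 4.02, Cks2 3.21 and Dtl 2.94), beside 4.95% and 8.6% of all genes, 0 as lower, with medians of 0.21 and 0.057. Skp2, the ligase subunit that marks p27 for destruction together with Cks1b, was at 2.95 CPM in control naive, 3.12 in control VM, 7.00 in IL-15C naive and 11.5 in IL-15C VM cells. It was counted as higher with IL-15C in VM cells (1.87) and not in naive cells (1.23, interval across 2-fold). Fbxw7, which marks cyclin E, was at 21.6 to 26.6 CPM throughout.

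Of the 13 pocket protein and E2F genes, 6 were counted as higher with IL-15C in naive cells (largest E2f8 5.93, E2f7 5.45 and E2f1 4.18) and 7 in VM cells (largest E2f8 3.97, E2f7 3.92 and E2f1 2.84), beside 4.95% and 8.6% of all genes, with 1 lower in VM cells, E2f5 (−2.02), and medians of 0.81 and 1.46. Rb1, whose protein the D cyclin kinases phosphorylate, had ratios of 0.38 and 0.90, within 2-fold. Among 12 quiescence genes that act on the inhibitors, 0 were higher and 0 lower in naive cells and 1 was lower in VM cells, the antiproliferative gene Btg1 (−1.21, 292 against 678 CPM), with medians of −0.34 and −0.62. Of all genes, 1.99% and 8.83% were lower in these responses, so 1 of 12 is near that share. Foxo1, whose product activates Cdkn1b transcription, had ratios of −0.46 and −0.55.

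The p53 target genes other than Cdkn1a had 0 of 11 counted as higher or lower in naive cells and 0 higher and 2 lower of 10 in VM cells, Gadd45a (−1.80) and Bbc3 (−1.24), with medians of −0.12 and −0.58. Of all genes, 4.95% were higher and 1.99% lower in naive cells, and 8.6% were higher and 8.83% lower in VM cells. Whether 2 of 10 differs from the last share was not tested. Of 12 genes of growth signalling to the D cyclins, feedback genes included, 1 was counted as higher in naive cells, Socs2 (2.93). In VM cells 2 were, Socs2 (2.46) and Cish (2.37), both STAT5-induced feedback genes. In both responses 0 were lower, with medians of 0.21 and 0.15. The counts of higher genes stand beside 4.95% and 8.6% of all genes. Myc was at 105 to 148 CPM in all 4 libraries, and Il2rb, the receptor chain for IL-15, at 223 and 309 CPM in the naive and 1175 and 1704 CPM in the VM libraries.

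**Figure D5:**
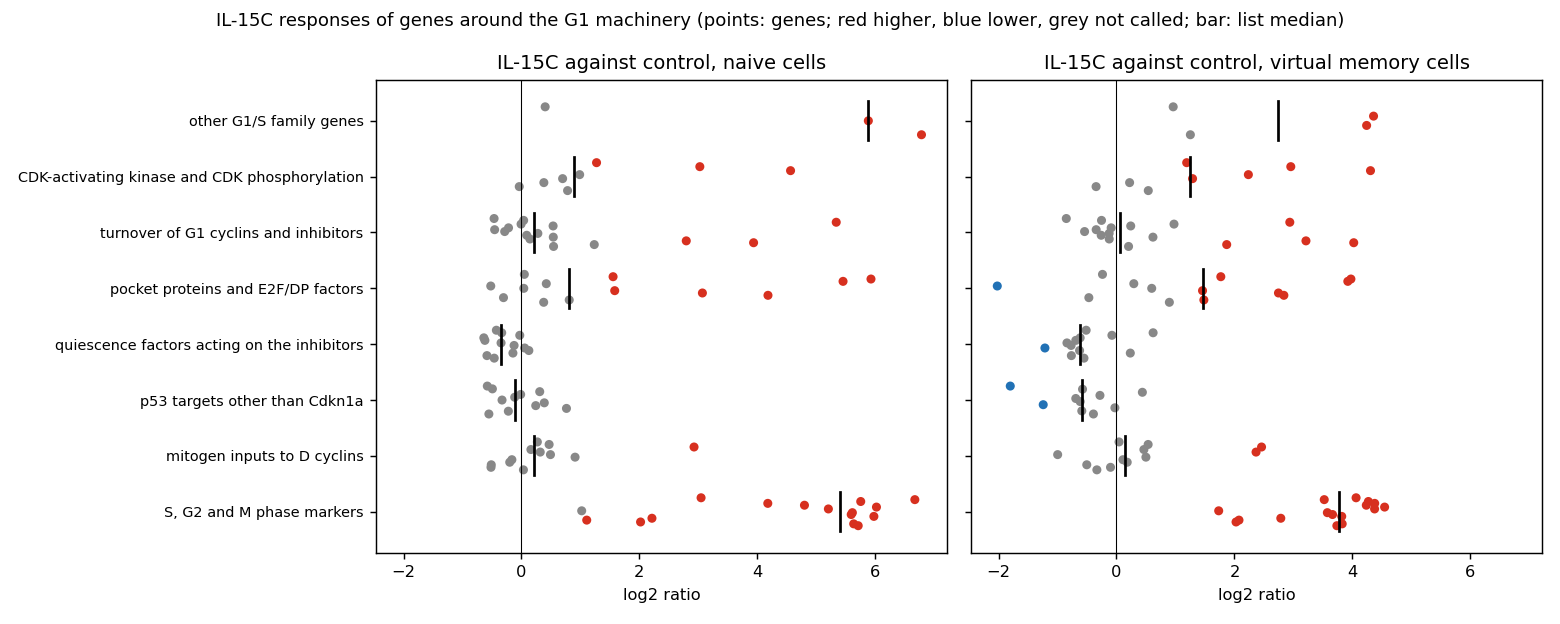
Log2 ratio of IL-15C against control (horizontal axis) in naive (left) and VM cells (right) for the compared genes of the 8 pathway lists, 1 point per gene, coloured red for higher, blue for lower and grey for neither, with a bar at each list's median. The S, G2 and M phase markers have medians of 5.40 and 3.78, while the quiescence genes have medians of −0.34 and −0.62.

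Between the subsets of control mice, the genes of these lists counted as higher in VM cells were 2 of 3 of the other G1/S family, 2 of 8 of kinase activation, 3 of 16 of turnover, 4 of 13 pocket protein and E2F genes, 1 of 12 quiescence genes (Smad3, 1.28), 1 of 10 p53 targets (Bbc3, 1.84), 1 of 11 growth signal genes (Il2rb, 2.40) and 12 of 16 phase markers, with 0 lower in each list. Of all genes, 4.81% were higher and 1.11% lower, and 1 gene of 10 to 12 is near the first share. In IL-15C mice, where 6.52% of all genes were higher, the counts in the same order were 2 of 4, 3 of 8, 2 of 16, 4 of 13, 1 of 12, 0 of 11, 3 of 12 and 12 of 16. Those lower were E2f5 (−1.57), 1 of 13, and Btg1 (−1.59), 1 of 12. Of all genes 5.91% were lower there, and both counts are near that share.

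Exons of 7 of the 10 genes overlap a gene on the opposite strand in GENCODE M21, the exceptions being Ccne1, Cdkn1b and Cdkn2c. The shared length is 34 bases for Cdk2 and Pmel, 361 for Ccnd3 and Bysl, 609 for Ccne2 and Ints8 and 641 for Cdk4 and Tspan31. The library kit was stranded, but the sources used here do not state whether strand was used in counting, and without it reads of such a pair cannot be told apart.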

How the data were processed

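Stranded poly(A) RNA-seq libraries of sorted spleen CD8 T cells, 1 per group, were analysed from a single deposited table. The submitters' processing notes name Trimmomatic 0.38, HISAT2 2.1.0, StringTie 2.1.3b, edgeR and the mm10 build, without their roles. Per the file headers, the authors' table holds raw whole-number counts, with TPM and FPKM as the authors computed them. The deposited log2 columns equal log2 of 1 + TMM-scaled CPM to within 5.0e-09. Its smallest count is 1, and genes with no read in some library were not analysed here. Another 10 per-sample columns were left aside. The ctrl columns were assigned to the wild-type groups.

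Counts were scaled with TMM (edgeR 4.0.16, R 4.3.3), with factors of 0.946 to 1.04. Log2 ratios used a prior count of 2. Intervals for the ratio of 2 libraries are exact conditional binomial (Clopper-Pearson, 95%), and those for the difference between responses use the Poisson variance of the 4 log counts. Both leave out the prior count, and PCR reads lacking molecular identifiers do not each stand for a molecule, so intervals cover counting error only. The calls were run on simulated Poisson counts with known fold changes, which hold counting error alone and no variation between mice or libraries. With 1 library per group no p-value was computed. TPM compared levels between genes. Coordinates and promoters are from RefSeq on GRCm38.p6, the assembly behind mm10, and exons from GENCODE M21.

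Members and lists were chosen with earlier results of these data known. All 10 genes are named. From each list up to 3 counted genes with the largest ratio per direction were named, besides genes needed as background. For genes with at least a 4-fold range, the 3 nearest protein-coding genes reaching 10 CPM were named. Alternatives were DESeq2 1.42.0 size factors, library size alone, a prior count of 0.5, TPM (log2 of TPM + 0.1), no filter, a 5 CPM filter and a 1.5-fold limit.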

Additional observations from a re-analysis of the deposited data

Results flagged for a closer look

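Cdk2 was the only one of the 9 compared genes whose difference between the subsets pointed in opposite directions in the 2 treatments with both counting intervals off 0. Its log2 ratio of VM against naive cells was −0.28 (−0.42 to −0.13) in control mice and 0.32 (0.24 to 0.40) in IL-15C mice, a difference of 0.59 that was not tested, since each group had 1 library.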

How the results depend on the processing

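No paired analysis was possible because each group had 1 library, and for the same reason no replicate could be left out. No called log2 ratio of the 10 genes changed sign under any setting tried. In control mice the count of these genes beyond 2-fold between the subsets was 1 in place of 2 with DESeq2 size factors, library size alone and TPM (each without Cdkn2c), and 1 with the 5 CPM filter (without Ccne2, which stayed under 5 CPM in both libraries). For the difference between responses the count was 1 in place of 2 in TPM, without Ccnd2. In TPM, which is not rescaled between libraries, the median of all genes shifted by −0.23 in the naive and −0.14 in the VM response, and library size alone shifted the VM response by −0.11. TPM without an interval counted 1507 genes in place of 845 in the naive response (39.5% of them higher, against 71.4%) and 1417 in place of 667 for the difference between responses (34.9% higher, against 18.0%), and in the VM response 37.0% were higher against 49.4%. The 5 CPM filter left 467 in place of 726 genes between the control subsets. The 1.5-fold limit counted 1207 genes between the control subsets, 3264 between the IL-15C subsets, 2361 in the naive response, 4354 in the VM response and 2001 for the difference, in place of 726, 1517, 845, 2156 and 667. With that limit Cdk4 was also counted as higher in both responses and Ccnd3 in VM cells. Without a filter Cdkn1a was counted as higher in IL-15C VM than in IL-15C naive cells. Depth limited Cdkn1a, whose intervals were 1.95 to 3.54 log2 units wide.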
